A study of Mus musculus with 12 samples.

Results

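Mechanical ventilation of wild type mouse lungs is described here gene family by gene family, from 3 arrays of ventilated lungs set against 3 arrays of intact lungs. The members of the comparison are these 6 of the 12 samples of the study, and all 22180 genes with a named probe on the array. Every mouse of both groups was a 10-week-old wildtype female. Ventilated mice received a positive inspiratory pressure of 15 cmH2O with zero end-expiratory pressure for 2.5 hours, at 100 breaths per minute, with equal inspiratory and expiratory times and an inspired oxygen fraction of 0.21. Intact mice were left unventilated at baseline, so effects of handling and of ventilation itself cannot be told apart. The labels name neither a strain nor an anaesthetic. RNA came from lung tissue, and the labels number the mice of each group as biological replicates. The 6 arrays of Zmpste24-deficient mice entered the estimate of the spread only.

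The lung is built from an airway and alveolar epithelium, a dense capillary endothelium, a mesenchyme of fibroblasts, pericytes and smooth muscle, and resident immune cells. Gas exchange requires that epithelium and endothelium stay thin and closely apposed, and breathing stretches both. The same signals that pattern the embryonic lung bud, among them the HOX and T-box transcription factors and the Hedgehog, Wnt, FGF, BMP and Notch pathways, remain active at low levels in the adult organ. Cells under stress in turn adjust the supply of amino acids, transfer RNAs, sterols and ribosomes that protein and membrane synthesis require.

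Values are normalized log2 signals, and a difference of 1 is a doubling. Array medians lay between 5.39 and 5.42 in the 6 arrays. Array pairs correlated across probes at 0.986 to 0.991 within a group and 0.979 to 0.988 between groups, as a description only. No background level comes with the values. The mean signal that 95% of the olfactory receptor genes do not exceed, 5.07, served as a reference for genes that lung is not expected to express, and is called the olfactory level here. Alveolar type 2 markers (Sftpc among them) averaged 11.9 to 12.2 in every array, so the tissue matches its label. Liver transcripts averaged 7.66 in intact array 2 against 4.71 to 5.90 in the other 5 arrays, and cardiac muscle transcripts averaged 10.4 in ventilated array 1 against 8.52 to 9.45. Results that change when a single array is left out are given with that array. Family counts of 0 or 1 moved by at most 2 members when 1 array was left out, and larger counts that moved by over 1.5 times are given with those arrays. The part of liver or cardiac RNA in other results was not tested.

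Ventilation moved 815 genes up and 782 down at a limma adjusted p under 0.05, which is 7.2% of the genes tested. The share was 3.67% for higher and 3.53% for lower genes, and these shares are the background for every family below. They include genes of low signal. Among the 14238 genes with a mean above the olfactory level, 1500 passed in either direction (10.5%). Families made mostly of genes above that level are to be read against this higher share. The median difference over all genes was -0.01. Among the called genes, 95 were at least 2-fold higher and 36 at least 2-fold lower, together 0.591% of all genes. The intact and ventilated arrays did not overlap in 1578 of the 1597 called genes, against 22.6% of all genes. Passing the threshold with 3 arrays per group nearly requires this. A lack of overlap in a called gene is therefore a description and adds no support to its call. The total was lowest without ventilated array 3, at 799 genes, and 664 genes passed whichever single array was left out. Most genes named below belong to these 664. Apart from Mir1929 and Mir143, each one that does not is given with the arrays on which its call depended. Genes were sorted into 140 families by their symbols, and 671 of the called genes fell into one. In 61 families of genes other than chemosensory receptors 5 or more members passed: in 10 of them every called member rose, in 6 every called member fell, and in 45 members passed both ways.

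**Figure D1:**
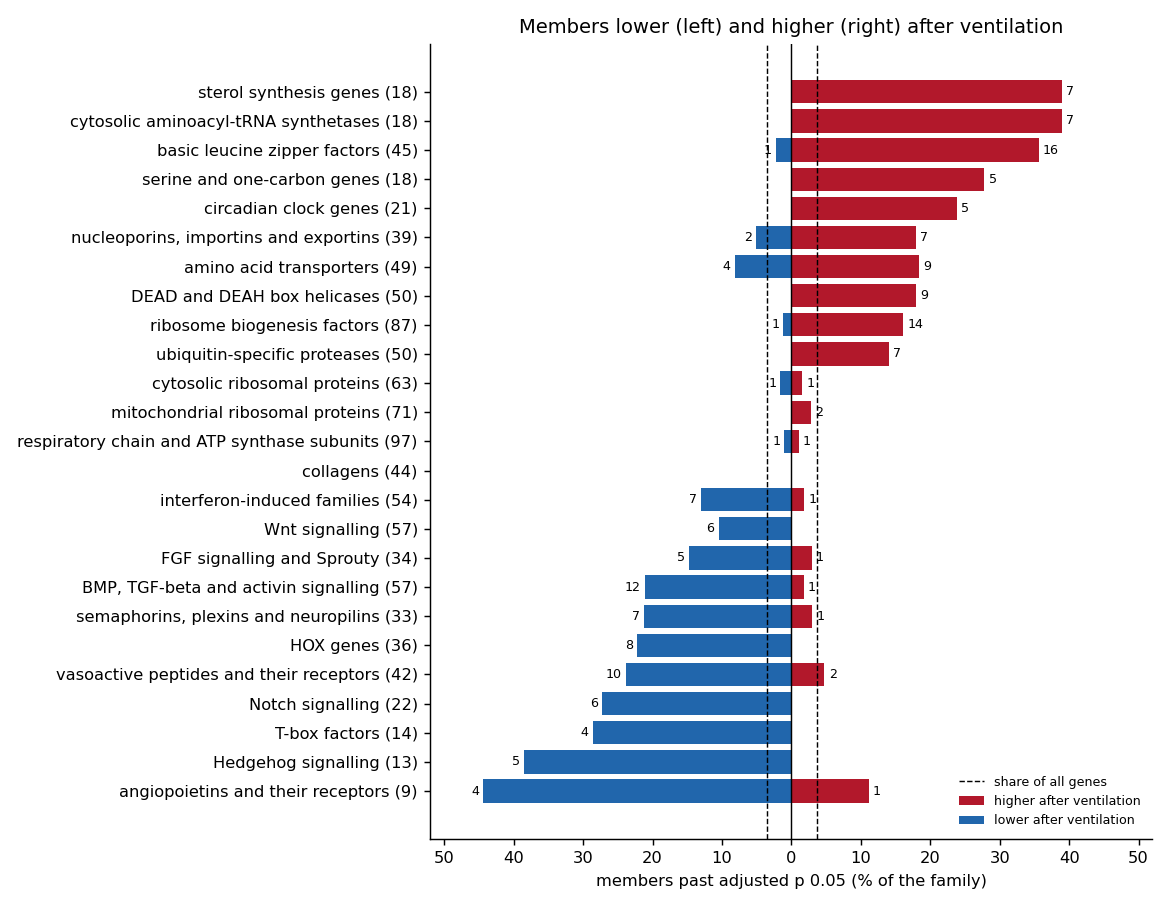
Share of the members of 25 gene families that passed the threshold, lower after ventilation to the left and higher to the right, in percent of the family. The number of measured members stands in parentheses, the number called beside each bar, and dashed lines mark the share among all genes. Sterol synthesis genes and cytosolic aminoacyl-tRNA synthetases reach 38.9% higher, angiopoietin genes reach 44.4% and Hedgehog genes 38.5% lower, and collagens have no called member.

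The largest increases outside the heat shock and antioxidant genes included F3, which encodes tissue factor, the trigger of coagulation. F3 measured 8.38, 8.47 and 8.69 in the intact lungs and 10.73, 10.16 and 10.58 in the ventilated lungs. The groups did not overlap, and the difference was 1.98 ± 0.17 (log2 difference ± standard error, n = 3 per group, here and throughout; adjusted p = 4.94e-05). Chac1, which encodes an enzyme that degrades glutathione, measured 5.48, 6.53 and 5.89 in the intact lungs and 8.15, 7.51 and 7.98 in the ventilated lungs, a difference of 1.91 ± 0.22. Eid3, which encodes a subunit related to the SMC5-SMC6 complex, differed by 2.10 ± 0.27. On the other side Snai2, a repressor of epithelial genes, measured 9.03, 9.36 and 9.52 in the intact lungs and 7.97, 8.09 and 8.12 in the ventilated lungs and fell by 1.25 on the log2 scale. The liver transcript Mup20 also passed as lower, with 6.20, 10.05 and 6.44 in the intact lungs and 5.21, 3.13 and 3.47 in the ventilated lungs. Its highest value was in intact array 2, where the mean of the 10 liver markers, of which 2 passed as lower, was also highest, and its call was lost without ventilated array 3 (adjusted p = 0.0572).

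HOX genes encode homeodomain proteins that set position along the body axis, and they lie in 4 clusters, A to D, in which genes at the same place form a numbered paralog group. Of 36 HOX genes measured, 8 fell and none rose, 22.2% of the family. The 8 that fell were exactly the 8 measured members of paralog groups 2 to 5 in clusters A and B. Only 14 HOX genes exceeded the olfactory level in either group, and the 6 of these that lie outside groups 2 to 5 did not pass. The count was 5 without intact array 2 and 4 without ventilated array 3, and the difference of each of the 8 genes stayed negative whichever array was left out. Without both intact array 2 and ventilated array 1 the count was 3.

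Hoxa5, which is required for normal lung and airway development, gave the largest HOX difference. It measured 7.72, 7.58 and 7.51 in the intact lungs and 6.52, 6.79 and 6.88 in the ventilated lungs. All ventilated values lay below all intact values, and the difference was -0.87 ± 0.10 (adjusted p = 0.000219). Hoxa4 measured 6.69, 6.67 and 7.04 in the intact lungs and 6.32, 6.19 and 6.18 in the ventilated lungs. Hoxa2 measured 7.16, 6.64 and 6.93 in the intact lungs and 6.24, 6.23 and 6.25 in the ventilated lungs, with the ventilated values close together. The groups did not overlap in either gene, and the differences were -0.57 ± 0.10 for Hoxa4 and -0.67 ± 0.13 for Hoxa2. Hoxa3 stood lower, at 5.63, 5.59 and 5.73 in the intact lungs and 5.22, 5.29 and 5.25 in the ventilated lungs, and differed by -0.39 ± 0.08.

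Of 10 measured cluster B genes 4 fell and none rose, and they are named here after their values were seen. Hoxb4 measured 6.77, 6.85 and 6.90 in the intact lungs and 6.40, 6.45 and 6.12 in the ventilated lungs, a difference of -0.52 ± 0.11 whose call was lost without ventilated array 3 (adjusted p = 0.0628). Hoxb5 measured 6.02, 6.17 and 5.87 in the intact lungs and 5.55, 5.49 and 5.50 in the ventilated lungs and differed by -0.51 ± 0.11, lost without either intact array 2 or ventilated array 3 (adjusted p = 0.0636 to 0.0694). Hoxb3 (-0.39 ± 0.11) lost its call without any of intact array 1, intact array 2, ventilated array 2 or ventilated array 3 (adjusted p = 0.117 to 0.165), and Hoxb2 (-0.34 ± 0.09) lost it without any 1 array (adjusted p = 0.0524 to 0.122). The neighbouring Hoxa6 and Hoxb6, the next paralogs along the clusters, differed by -0.21 ± 0.11 and -0.15 ± 0.14 and did not pass. Hoxa7 differed by 0.07 ± 0.09.

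**Figure D2:**
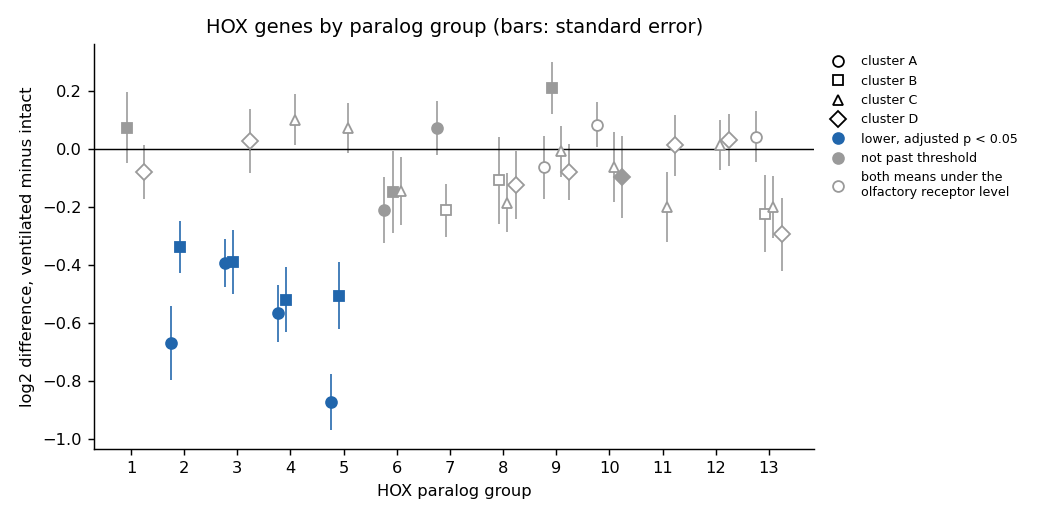
Log2 difference between ventilated and intact lungs for the 36 measured HOX genes by paralog group, with marker shape for the cluster and bars for the standard error. Blue points passed as lower, grey points did not pass, and open points had both group means under the olfactory level. All blue points lie in paralog groups 2 to 5 of clusters A and B, from -0.87 for Hoxa5 to -0.34 for Hoxb2.

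Of 14 T-box factors 4 fell and none rose (28.6%), and the count was 2 without ventilated array 3. All 4 are Tbx2, Tbx3, Tbx4 and Tbx5, the factors of the embryonic lung mesenchyme, and no other T-box gene passed. Tbx3 measured 9.52, 9.43 and 9.30 in the intact lungs and 8.21, 8.16 and 8.27 in the ventilated lungs, a difference of -1.20 ± 0.10 (adjusted p = 4.63e-05). Tbx2 measured 9.28, 8.86 and 9.15 in the intact lungs and 8.28, 8.17 and 8.19 in the ventilated lungs and differed by -0.88 ± 0.10. The arrays of the groups did not overlap in either gene. Tbx4 (-0.42 ± 0.09) lost its call without ventilated array 3 (adjusted p = 0.0583), and Tbx5 (-0.47 ± 0.12) lost its call without any of intact array 1, intact array 2, ventilated array 2 or ventilated array 3 (adjusted p = 0.0556 to 0.141).

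Among 87 homeobox factors outside the HOX clusters 7 fell and none rose. This is 8.05%, against 7.2% of all genes and 10.5% of those above the olfactory level in either direction. Meox2, a mesenchymal and vascular homeobox gene, measured 7.97, 8.09 and 8.06 in the intact lungs and 6.45, 6.70 and 6.37 in the ventilated lungs. Its groups lay more than 1 log2 unit apart, and its difference of -1.54 ± 0.10 was the largest of the family (adjusted p = 1.14e-05). Hlx, expressed in visceral mesenchyme, measured 8.12, 8.14 and 8.35 in the intact lungs and 7.25, 7.31 and 7.21 in the ventilated lungs and differed by -0.95 ± 0.09. Meis1, a cofactor that binds DNA together with HOX proteins, measured 9.34, 9.08 and 8.70 in the intact lungs and 8.10, 8.44 and 8.02 in the ventilated lungs and differed by -0.85 ± 0.14. Its relative Meis2, named after its value was seen, differed by -0.46 ± 0.10 and lost its call without ventilated array 3 (adjusted p = 0.0688). Zeb1, a repressor of epithelial genes, differed by -0.44 ± 0.09.

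Of 43 forkhead factors 2 rose and 2 fell (9.3%, against 10.5% of genes above the olfactory level). Both that fell are the FOXF factors of the lung mesenchyme and endothelium. Foxf2 measured 7.88, 7.52 and 7.76 in the intact lungs and 6.57, 6.36 and 6.22 in the ventilated lungs and differed by -1.34 ± 0.12. Foxf1 measured 10.40, 10.68 and 10.64 in the intact lungs and 9.90, 9.98 and 10.0 in the ventilated lungs, a smaller difference of -0.61 ± 0.10. Of the 2 that rose, Foxo3 (0.43 ± 0.10) lost its call without any of intact array 1, intact array 2, ventilated array 2 or ventilated array 3 (adjusted p = 0.0584 to 0.109), and the count of higher genes was 0 without intact array 1, 0 without intact array 2, 1 without ventilated array 1, 1 without ventilated array 2 and 0 without ventilated array 3. Tcf21, a basic helix-loop-helix factor of lung fibroblasts, measured 9.58, 9.62 and 9.74 in the intact lungs and 8.80, 8.65 and 8.48 in the ventilated lungs and differed by -1.0 ± 0.11. Myc, in the same class of factors, moved the other way, with 6.75, 6.89 and 7.14 in the intact lungs and 8.66, 7.92 and 8.32 in the ventilated lungs, a difference of 1.37 ± 0.17. Of the 5 fibroblast markers Tcf21 alone passed. Col1a1 (-0.06 ± 0.13), Col1a2 (-0.09 ± 0.09), Pdgfra (-0.13 ± 0.08) and Dcn (0.19 ± 0.15) did not.

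Further single factors of these classes stood out by size. Prdm8, a PR domain repressor, differed by -1.36 ± 0.16, and Prdm6, a smooth muscle repressor of the same family, by -0.76 ± 0.10. All 3 called PR domain genes of 13 fell. Gata5, an endothelial and cardiac GATA factor, measured 6.98, 7.15 and 7.21 in the intact lungs and 6.18, 6.16 and 6.06 in the ventilated lungs and differed by -0.98 ± 0.10. Nr2f2, the nuclear receptor COUP-TFII of venous endothelium, differed by -0.75 ± 0.10. Of 38 nuclear receptors 4 fell and 1 rose, and the 1 that rose was the early response gene Nr4a3 (1.32 ± 0.23).

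Of the 6 endothelial markers Pecam1, Cldn5, Kdr, Tie1 and Car4 fell and Cdh5 (-0.19 ± 0.09) did not pass. Pecam1 lost its call without any of intact array 1, intact array 2, ventilated array 1 or ventilated array 3 (adjusted p = 0.0591 to 0.0883) and Kdr without any of intact array 1, intact array 2, ventilated array 1 or ventilated array 3 (adjusted p = 0.0573 to 0.117). The mean of the 6 markers was 10.6, 10.6 and 10.6 in the intact arrays and 10.0, 10.1 and 10.2 in the ventilated arrays. In whole lung RNA, fewer cells of a type and less RNA per cell cannot be told apart, and this holds for each family above and below.

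Bone morphogenetic proteins signal through ALK1 (Acvrl1), its coreceptor endoglin (Eng) and the SMAD factors in endothelium, and induce the inhibitory SMADs and ID proteins as feedback. Of 57 genes of the BMP, TGF-beta and activin pathways 12 fell and 1 rose (22.8%). The lower count was 5 without both intact array 2 and ventilated array 1. Bmp4, a ligand made in the mesenchyme, measured 9.71, 10.09 and 9.97 in the intact lungs and 9.13, 9.11 and 8.92 in the ventilated lungs and differed by -0.87 ± 0.14. Bmp3 differed by -0.78 ± 0.15, and the TGF-beta ligand Tgfb3 by -0.44 ± 0.09.

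Among the receptors Acvrl1 measured 9.69, 9.67 and 9.65 in the intact lungs and 9.06, 9.14 and 9.11 in the ventilated lungs, with ventilated values all below the intact ones, and differed by -0.56 ± 0.08. Eng measured 11.52, 11.69 and 11.59 in the intact lungs and 11.07, 11.06 and 11.05 in the ventilated lungs and differed by -0.54 ± 0.10. Of the 8 SMAD genes 3 fell and none rose. The inhibitory Smad6 measured 9.15, 9.38 and 9.19 in the intact lungs and 7.91, 8.04 and 7.92 in the ventilated lungs, a difference of -1.29 ± 0.11 (adjusted p = 3.65e-05), and the inhibitory Smad7 differed by -0.60 ± 0.11. Smad9, a receptor-activated SMAD of the BMP branch, differed by -0.83 ± 0.16. The other receptor-activated SMADs and the shared partner Smad4 differed by only 0.12 (Smad5), 0.14 (Smad4), 0.14 (Smad1), 0.17 (Smad3) and 0.17 (Smad2), and none passed.

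Of the 4 ID genes, which encode inhibitors of basic helix-loop-helix factors, Id1 measured 8.06, 8.50 and 8.38 in the intact lungs and 6.99, 7.22 and 7.37 in the ventilated lungs and differed by -1.12 ± 0.13. Id3 (-0.33 ± 0.16), Id2 (-0.25 ± 0.12) and Id4 (-0.20 ± 0.15) were negative without passing. Tmem100, a membrane protein of endothelium that depends on ALK1, measured 11.24, 11.36 and 11.26 in the intact lungs and 9.08, 9.52 and 9.39 in the ventilated lungs. Its difference of -1.95 ± 0.12 was the largest decrease past the threshold outside 3 liver genes, Mup20, Mup3 and Cyp4a14. Without 1 array Mup3 lost its call (without any of intact array 2, intact array 3, ventilated array 2 or ventilated array 3 (adjusted p = 0.0841 to 0.133)), as did Cyp4a14 (without any of ventilated array 1, ventilated array 2 or ventilated array 3 (adjusted p = 0.0623 to 0.119)) and Mup20 (without ventilated array 3 (adjusted p = 0.0572)). The 1 member that rose was Inhba, a subunit of activin A, with 4.42, 4.54 and 4.46 in the intact lungs and 5.98, 5.27 and 5.02 in the ventilated lungs. Its intact values were under the olfactory level, so the size of the rise is uncertain, and its call was lost without any of intact array 1, intact array 2, intact array 3, ventilated array 1 or ventilated array 2 (adjusted p = 0.052 to 0.11).

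Notch signalling between endothelial cells uses the ligands DLL4 and JAG1, the fringe enzymes that modify Notch, and the targets HEY1 and HEY2. Of 22 Notch genes 6 fell and none rose (27.3%), and the count was 3 without ventilated array 2. The ligand Dll4 measured 8.07, 8.39 and 8.48 in the intact lungs and 7.70, 7.44 and 7.50 in the ventilated lungs and differed by -0.77 ± 0.16. The target Hey1 measured 9.08, 8.61 and 9.21 in the intact lungs and 7.87, 7.85 and 7.93 in the ventilated lungs and differed by -1.08 ± 0.15, and Hey2 differed by -0.60 ± 0.10. The groups did not overlap in these 3 genes. None of the 4 Notch receptor genes passed, with differences from -0.29 (Notch3) to 0.09 (Notch1). Sox18, of arterial and lymphatic endothelium, and Klf2, which responds to blood flow, also fell: Sox18 measured 8.63, 8.82 and 9.03 in the intact lungs and 7.60, 7.24 and 7.18 in the ventilated lungs (-1.49 ± 0.16), and Klf2 measured 8.73, 9.20 and 9.41 in the intact lungs and 7.57, 7.53 and 7.65 in the ventilated lungs (-1.53 ± 0.16).

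The angiopoietins bind the receptor TIE2 (Tek), and TIE1 is its partner. Of 9 genes in this family 4 fell and 1 rose. Tek measured 10.66, 10.75 and 10.63 in the intact lungs and 10.0, 10.09 and 10.04 in the ventilated lungs, a difference of -0.63 ± 0.11 with no overlap. Angpt2, the ligand stored in endothelial cells, differed by -0.90 ± 0.14, and Tie1 by -0.41 ± 0.08. Angpt1 (-0.60 ± 0.13), a ligand made by pericytes, lost its call without any of intact array 1, intact array 2, ventilated array 1 or ventilated array 3 (adjusted p = 0.051 to 0.066), and a second Angpt1 probe differed by -0.12. The riser was Angptl4 (0.92 ± 0.24), a secreted lipase inhibitor that is named for its similarity to angiopoietins and lost its call without any of intact array 2, intact array 3, ventilated array 1, ventilated array 2 or ventilated array 3 (adjusted p = 0.0547 to 0.119).

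In the PDGF and VEGF family 4 of 15 genes fell and none rose, a count that was 1 without intact array 1, 2 without intact array 2, 2 without ventilated array 1 and 1 without ventilated array 3. Pdgfb, the endothelial signal that recruits pericytes, measured 9.27, 9.29 and 9.23 in the intact lungs and 8.74, 8.54 and 8.76 in the ventilated lungs and differed by -0.59 ± 0.09. Its receptor Pdgfrb differed by -0.53 ± 0.12 and lost its call without either intact array 1 or ventilated array 3 (adjusted p = 0.0544 to 0.0665). Kdr, the main VEGF receptor, differed by -0.48 ± 0.13 and lost its call without any of intact array 1, intact array 2, ventilated array 1 or ventilated array 3 (adjusted p = 0.0573 to 0.117). The ligand Vegfa differed by -0.18 ± 0.09 and the receptor Flt1 by -0.14 ± 0.10, and neither passed.

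**Figure D3:**
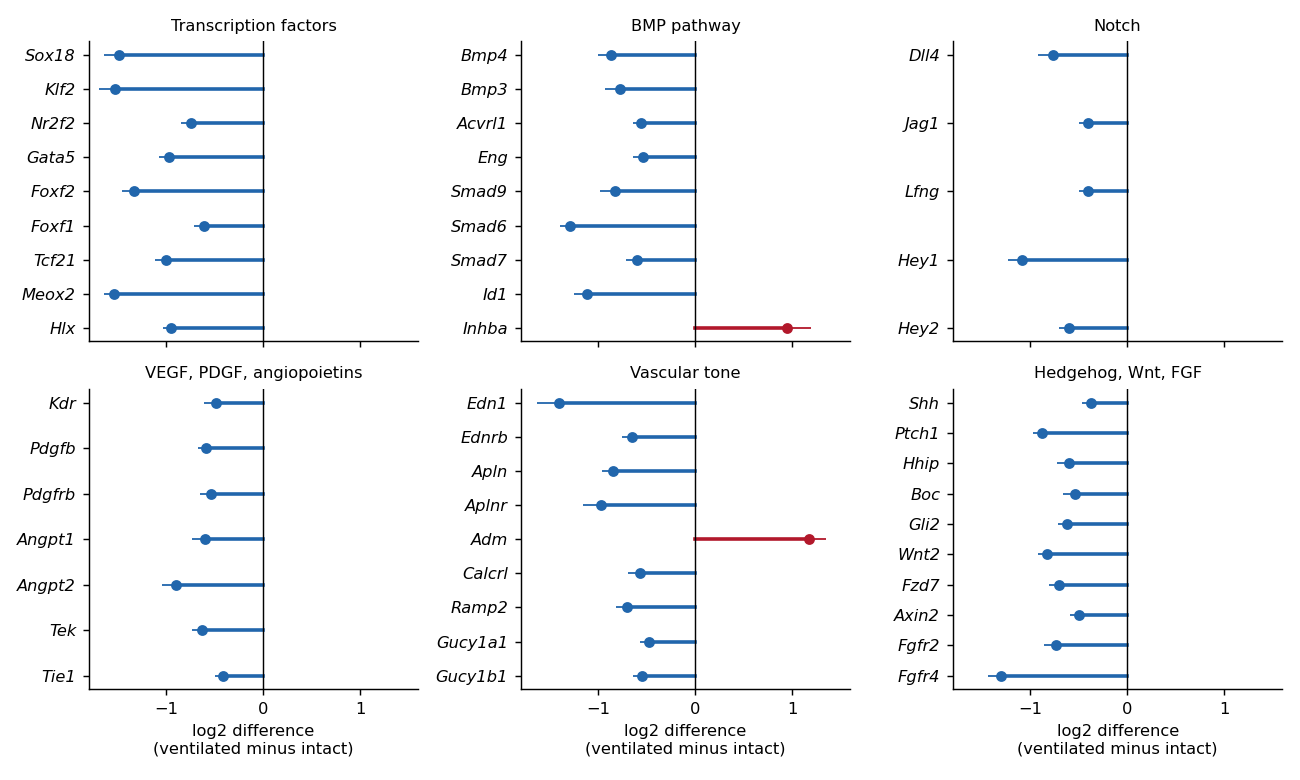
Log2 difference between ventilated and intact lungs (x axis) with its standard error for 49 genes grouped by pathway and role, blue for lower and red for higher. All 49 genes passed the threshold and were drawn from the called members, so the panels show sizes and not how often a pathway passed. Only Inhba and Adm lie to the right of 0.

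Vessel tone is set by endothelin-1, a constrictor, by apelin and adrenomedullin, which dilate, and by nitric oxide acting on soluble guanylate cyclase. Of 42 genes for vasoactive peptides and their receptors 10 fell and 2 rose (28.6%), and the count of lower genes stayed between 8 and 9 with any 1 array left out. It was 6 without both intact array 2 and ventilated array 1. The count of higher genes was 1 without intact array 1, 1 without intact array 2, 1 without ventilated array 1 and 1 without ventilated array 3. Endothelin-1 (Edn1) measured 9.27, 8.83 and 9.10 in the intact lungs and 7.79, 7.48 and 7.71 in the ventilated lungs. The lowest intact value was about 1 log2 unit above the highest ventilated value, and the difference was -1.41 ± 0.23 (adjusted p = 0.00243). Its receptor Ednrb differed by -0.65 ± 0.11.

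Ligand and receptor also fell together for apelin. Apln measured 7.02, 7.20 and 7.43 in the intact lungs and 6.23, 6.32 and 6.54 in the ventilated lungs (-0.85 ± 0.11), and its receptor Aplnr measured 8.0, 8.39 and 8.50 in the intact lungs and 7.16, 7.45 and 7.38 in the ventilated lungs (-0.97 ± 0.19). For adrenomedullin they moved apart. The peptide Adm measured 6.55, 7.29 and 7.11 in the intact lungs and 8.06, 7.92 and 8.50 in the ventilated lungs and rose by 1.18 ± 0.17. Both parts of its receptor fell: Calcrl measured 12.20, 12.20 and 11.97 in the intact lungs and 11.32, 11.68 and 11.66 in the ventilated lungs (-0.57 ± 0.12) and Ramp2 measured 8.41, 8.13 and 8.44 in the intact lungs and 7.64, 7.56 and 7.66 in the ventilated lungs (-0.71 ± 0.11). Both subunits of soluble guanylate cyclase fell too, Gucy1a1 by 0.48 and Gucy1b1 by 0.55 on the log2 scale, while the endothelial nitric oxide synthase Nos3 differed by 0.01 ± 0.11.

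Of 19 connexins and pannexins the endothelial Gja5 fell, with 6.64, 7.05 and 6.90 in the intact lungs and 5.99, 5.97 and 6.05 in the ventilated lungs (-0.86 ± 0.13). The endothelial Gja4 fell too (-0.48 ± 0.08). Gja1, the widely expressed connexin 43, rose, with 8.02, 8.26 and 8.38 in the intact lungs and 9.21, 8.62 and 9.10 in the ventilated lungs (0.76 ± 0.14). Of 23 claudins the endothelial Cldn5 fell, with 9.39, 9.59 and 9.69 in the intact lungs and 8.54, 8.79 and 8.72 in the ventilated lungs (-0.87 ± 0.11). The epithelial Cldn4 rose, with 6.05, 5.67 and 5.76 in the intact lungs and 8.60, 7.59 and 8.24 in the ventilated lungs (2.32 ± 0.27, 4.98-fold). No other claudin passed, so the share was 8.7%, against 7.2% of all genes and 10.5% of those above the olfactory level. Among 48 keratins 3 rose, all of simple epithelium: Krt8 measured 8.58, 8.64 and 8.94 in the intact lungs and 10.23, 9.80 and 10.14 in the ventilated lungs and differed by 1.34 ± 0.17. Krt18 (1.20 ± 0.18) and Krt19 (0.99 ± 0.14) followed, and a second Krt18 probe differed by 0.94. The share of keratins that passed was 6.25%, under the 7.2% of all genes.

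Of 63 classical cadherins and protocadherins 5 fell and 1 rose, and the 5 lower calls stood whichever array was left out. The share was 9.52%, against 7.2% of all genes and 10.5% of those above the olfactory level. Pcdh17 differed by -0.74 ± 0.11, the endothelial Pcdh12 by -0.46 ± 0.08, Pcdh1 by -0.74 ± 0.14 and the fibroblast cadherin Cdh11 by -0.91 ± 0.19. Clec14a, an endothelial lectin, measured 10.36, 10.16 and 10.16 in the intact lungs and 8.58, 9.17 and 8.94 in the ventilated lungs and differed by -1.33 ± 0.13. The lymphatic and sinusoidal receptor Gpr182 differed by -1.08 ± 0.13, the only orphan G protein-coupled receptor of 65 to pass under every omission of 1 array.

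Hedgehog signalling passes from epithelial SHH to the receptor PTCH1 on mesenchymal cells and on to the GLI factors, and PTCH1 and HHIP are both targets and brakes of the pathway. Of 13 Hedgehog genes 5 fell and none rose (38.5%), and 12 of the 13 differences were negative, with a median of -0.39. The count was 3 without intact array 2 and 3 without ventilated array 3. Ptch1 measured 9.49, 9.33 and 9.19 in the intact lungs and 8.49, 8.55 and 8.33 in the ventilated lungs. All ventilated values lay below all intact values, and the difference was -0.88 ± 0.10 (adjusted p = 0.000191). Gli2 measured 6.14, 6.23 and 6.29 in the intact lungs and 5.57, 5.78 and 5.44 in the ventilated lungs and differed by -0.62 ± 0.09. Hhip (-0.60 ± 0.13) lost its call without any of intact array 1, intact array 2 or ventilated array 3 (adjusted p = 0.0503 to 0.0692), and the coreceptor Boc (-0.54 ± 0.12) lost its call without either intact array 3 or ventilated array 1 (adjusted p = 0.0541 to 0.0608). Gli1, often read as a target of the pathway, differed by -0.08 ± 0.17 and did not pass.

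Wnt signals were lower in parts. Of 57 Wnt genes 6 fell and none rose (10.5%). Among genes above the olfactory level 10.5% passed in either direction. The lung mesenchymal ligand Wnt2 measured 6.54, 6.29 and 6.14 in the intact lungs and 5.54, 5.57 and 5.39 in the ventilated lungs and differed by -0.82 ± 0.10. The receptor Fzd7 measured 7.81, 7.92 and 8.09 in the intact lungs and 7.19, 7.37 and 7.16 in the ventilated lungs and differed by -0.70 ± 0.10. Axin2, a feedback target of the canonical pathway, differed by -0.50 ± 0.09, and a second Axin2 probe differed by -0.16.

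In the FGF family of 34 genes 5 fell and 1 rose, and 3 of the 4 receptors were among the 5. Fgfr4 measured 7.84, 7.65 and 7.90 in the intact lungs and 6.59, 6.44 and 6.45 in the ventilated lungs and differed by -1.31 ± 0.13 (adjusted p = 0.000101). Fgfr2, the receptor of the lung epithelium, measured 9.61, 9.84 and 9.70 in the intact lungs and 8.77, 9.29 and 8.89 in the ventilated lungs and differed by -0.73 ± 0.13. Fgfr3 (-0.45 ± 0.11) lost its call without either intact array 1 or ventilated array 2 (adjusted p = 0.0676 to 0.0696), and Fgfr1 differed by 0.03 ± 0.11. The count of FGF genes that fell was 3 without intact array 1, 3 without ventilated array 1 and 3 without ventilated array 3.

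Axon guidance genes also steer vessels. Of 33 semaphorins, plexins and neuropilins 7 fell and 1 rose (24.2%). The lower count was 4 without intact array 1, 4 without intact array 3, 4 without ventilated array 1 and 4 without ventilated array 3. Without both intact array 2 and ventilated array 1 it was 3. Of the 20 semaphorins, the ligands of this family, 1 fell, and their median was -0.14. Of the 9 plexins, their receptors, 3 fell and 1 rose, with a median of -0.10. Plxnd1, the endothelial plexin, measured 8.87, 9.02 and 9.16 in the intact lungs and 8.47, 8.55 and 8.44 in the ventilated lungs and differed by -0.53 ± 0.09. Nrp1, a coreceptor for semaphorins and VEGF, measured 10.44, 10.54 and 10.19 in the intact lungs and 9.83, 9.95 and 9.67 in the ventilated lungs and differed by -0.57 ± 0.10. Plxna1 differed by -0.57 ± 0.10, and a second probe of it by -0.02. Of 18 Slit, Robo, netrin and Unc5 genes 5 fell and none rose, and Slit2 (-0.51 ± 0.10) alone kept its call through every omission. That count was 3 without intact array 1, 2 without intact array 3, 1 without ventilated array 1, 2 without ventilated array 2 and 2 without ventilated array 3.

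Among 21 ephrins and Eph receptors the receptor Epha2 rose, with 8.03, 8.10 and 8.29 in the intact lungs and 9.62, 8.97 and 9.60 in the ventilated lungs, a difference of 1.26 ± 0.15. Lower were 3 members (1 without intact array 3 and 1 without ventilated array 3). The ligand Efnb2 of arterial endothelium differed by -0.60 ± 0.12. The EGF family rose in part: Hbegf, a ligand released from epithelium, measured 8.14, 8.30 and 8.17 in the intact lungs and 9.27, 8.80 and 9.45 in the ventilated lungs and differed by 0.97 ± 0.13. Errfi1, an inhibitor of the EGF receptor, differed by 1.02 ± 0.13, and the ligand Nrg1 by 0.94 ± 0.15. The related ligand Nrg2 went the other way, by -0.74 ± 0.11.

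Aminoacyl-tRNA synthetases load amino acids onto transfer RNAs, and separate genes serve the cytosol and the mitochondrion. Of 18 cytosolic synthetase and cofactor genes 7 rose and none fell (38.9%, median 0.24). The count was 4 without ventilated array 3. Of the 16 mitochondrial synthetases none passed, and their median was 0.01. Cars, for cysteine, measured 7.42, 7.19 and 7.08 in the intact lungs and 8.09, 8.04 and 8.34 in the ventilated lungs, a difference of 0.93 ± 0.12 (adjusted p = 0.00063). Tars, for threonine, measured 8.08, 8.25 and 8.07 in the intact lungs and 8.71, 8.73 and 9.03 in the ventilated lungs and differed by 0.69 ± 0.10. The groups did not overlap in either gene. Yars, for tyrosine, differed by 0.52 ± 0.10, and Gars, for glycine, by 0.48 ± 0.10. The synthetases for tryptophan (Wars, -0.25 ± 0.08), glutamine (Qars, -0.16 ± 0.07) and lysine (Kars, -0.08 ± 0.08) were negative without passing.

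Promoters of the raised synthetases were compared because members of the family moved together. The letters TGATGNAA, the core of the C/EBP-ATF response element through which ATF4 acts, were searched on both strands in the 300 bases of RefSeq promoter sequence per start site (GRCm38.p6, 250 before and 50 after the start). They occur in 4.51% of the 27025 genes with a promoter sequence, and in 3.92% of the 16990 of these that were tested. Of the 5 raised cytosolic synthetases with a sequence 4 hold them (Gars, Iars, Tars and Yars), against none of 6 that did not pass and none of 14 mitochondrial ones. Among all genes higher after ventilation 6.32% hold them, and among lower genes 2.95%. Of 8 raised amino acid transporters with a sequence 1 holds them, Slc7a11, as do 2 of 24 that did not pass. Of 4 raised serine and one-carbon genes 1 holds them, Asns, against none of 12 that did not pass. The matching stretches are shown 5′ to 3′ on the gene's strand with the match on either strand in capitals, together with those of Asns and Slc7a11.
Tars, chr15:11399625-11399714, - strand: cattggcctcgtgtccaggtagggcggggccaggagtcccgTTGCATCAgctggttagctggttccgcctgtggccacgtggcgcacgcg
Gars, chr6:55037930-55038019, + strand: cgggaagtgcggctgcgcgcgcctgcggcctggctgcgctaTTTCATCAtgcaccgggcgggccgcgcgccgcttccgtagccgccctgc
Iars, chr13:49682096-49682179, + strand: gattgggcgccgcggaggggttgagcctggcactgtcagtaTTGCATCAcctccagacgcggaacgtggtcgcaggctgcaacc
Yars, chr4:129189865-129189952, + strand: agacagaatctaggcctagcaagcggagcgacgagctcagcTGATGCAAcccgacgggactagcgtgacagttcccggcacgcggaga
Asns, chr6:7693184-7693273, - strand: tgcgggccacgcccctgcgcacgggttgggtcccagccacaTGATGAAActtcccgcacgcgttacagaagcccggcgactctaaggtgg
Slc7a11, chr3:50443622-50443711, - strand: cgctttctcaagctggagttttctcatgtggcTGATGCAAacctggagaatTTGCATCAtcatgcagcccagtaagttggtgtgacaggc
In Tars, Gars and Iars the match reads on the opposite strand, in Yars and Asns on the gene's strand, and Slc7a11 has 2 matches, 1 on each strand. The Iars and Yars matches lie just after the start site and the others before it. The cAMP response letters TGACGTCA occur in 5.85% of higher genes, 1.22% of lower genes and 2.03% of all genes with a promoter. A match describes these letters only, and 8 motifs were searched.

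Amino acid transporters moved both ways. Of 49 amino acid transporters 9 rose and 4 fell (26.5%), although their median was -0.06. Slc7a11, the cystine importer whose promoter holds both matches, measured 4.08, 4.38 and 4.28 in the intact lungs and 8.78, 7.67 and 8.84 in the ventilated lungs, a difference of 4.18 ± 0.34. Its intact values were under the olfactory level, and its other probe differed by 0.27. Slc7a5, which imports large neutral amino acids, measured 6.83, 6.83 and 7.17 in the intact lungs and 8.59, 8.06 and 8.48 in the ventilated lungs and differed by 1.44 ± 0.15. Slc7a1, the arginine importer, measured 6.73, 6.82 and 7.20 in the intact lungs and 8.25, 8.05 and 8.52 in the ventilated lungs (1.36 ± 0.16), and Slc38a2, the glutamine importer SNAT2, measured 9.60, 9.90 and 9.84 in the intact lungs and 10.95, 10.74 and 10.86 in the ventilated lungs (1.07 ± 0.12). Slc3a2, the heavy chain that pairs with SLC7A5 and SLC7A11, differed by 0.51 ± 0.09. Slc7a10, a serine and glycine exchanger, fell, with 8.15, 8.28 and 8.42 in the intact lungs and 7.13, 7.36 and 7.41 in the ventilated lungs (-0.98 ± 0.13), and Slc38a5 fell, with a difference of -0.77 ± 0.13.

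Of 18 serine and one-carbon genes 5 rose and none fell (27.8%). The mitochondrial folate enzyme Mthfd2 measured 5.33, 5.21 and 5.11 in the intact lungs and 6.45, 6.46 and 7.24 in the ventilated lungs, a difference of 1.50 ± 0.18 (adjusted p = 0.000314). Its intact values were near the olfactory level. Asns, which makes asparagine, measured 7.09, 7.47 and 7.28 in the intact lungs and 8.06, 8.14 and 8.45 in the ventilated lungs and differed by 0.93 ± 0.12. Aldh18a1, of proline synthesis, differed by 0.70 ± 0.12, and the folate dehydrogenase Aldh1l2, with intact values under the olfactory level, by 0.54 ± 0.07. The cytosolic Mthfd1 (-0.14 ± 0.13) and the serine enzyme Phgdh (0.20 ± 0.13), named after their values were seen, did not pass.

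Of 87 ribosome biogenesis factors 14 rose (16.1%) and 76 of the 87 differences were positive, with a median of 0.17. The 1 member lower, Nol3, encodes an apoptosis repressor and matched by its name only. The count of higher genes was 9 without intact array 1, 9 without intact array 2, 9 without ventilated array 2 and 8 without ventilated array 3. Gnl3, nucleostemin, measured 7.18, 7.24 and 7.04 in the intact lungs and 7.94, 7.84 and 8.03 in the ventilated lungs and differed by 0.78 ± 0.13. Nop58, a core protein of box C/D particles, measured 8.13, 7.94 and 7.79 in the intact lungs and 8.62, 8.70 and 9.06 in the ventilated lungs and differed by 0.84 ± 0.15. Utp18, of the small subunit processome, differed by 0.58 ± 0.09, and Pno1 by 0.55 ± 0.11. Of 63 cytosolic ribosomal proteins 1 rose and 1 fell, with a median of -0.01, and of 71 mitochondrial ribosomal proteins 2 rose, with a median of 0.00 (0 without intact array 1, 1 without intact array 2, 0 without ventilated array 2 and 0 without ventilated array 3). For the helicase Ddx21 (0.52 ± 0.10) a second probe differed by 0.10, and for the kinase Riok2 (0.56 ± 0.10) a second probe by -0.12.

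Genes that host small nucleolar RNAs and other long noncoding RNAs rose in 6 of 27, and Snhg1 measured 7.15, 7.17 and 7.17 in the intact lungs and 7.60, 7.86 and 8.11 in the ventilated lungs (0.70 ± 0.13). That count was 2 without intact array 2 and 2 without ventilated array 3. DEAD and DEAH box helicases rose in 9 of 50, a count that was 4 without intact array 1, 3 without intact array 2, 4 without intact array 3, 4 without ventilated array 2 and 2 without ventilated array 3. Initiation and elongation factors rose in 8 of 72, among them Eif5 (0.66 ± 0.10), the release factor Etf1 (0.54 ± 0.09) and Eif2s2 (0.41 ± 0.07), and none fell. The count of these was 5 without intact array 3, 5 without ventilated array 1 and 4 without ventilated array 3. In the nuclear transport family of 39 genes 7 rose and 2 fell. The higher count was 4 without intact array 3, 4 without ventilated array 2 and 3 without ventilated array 3, and the lower count was 1 without intact array 1, 0 without intact array 2, 1 without intact array 3, 1 without ventilated array 1, 1 without ventilated array 2 and 1 without ventilated array 3. The importin Kpna2 differed by 0.54 ± 0.10 and the nucleoporin Nup98 by 0.47 ± 0.09, while the main exportin Xpo1 fell (-0.62 ± 0.13) and lost its call without intact array 2 (adjusted p = 0.0521).

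**Figure D4:**
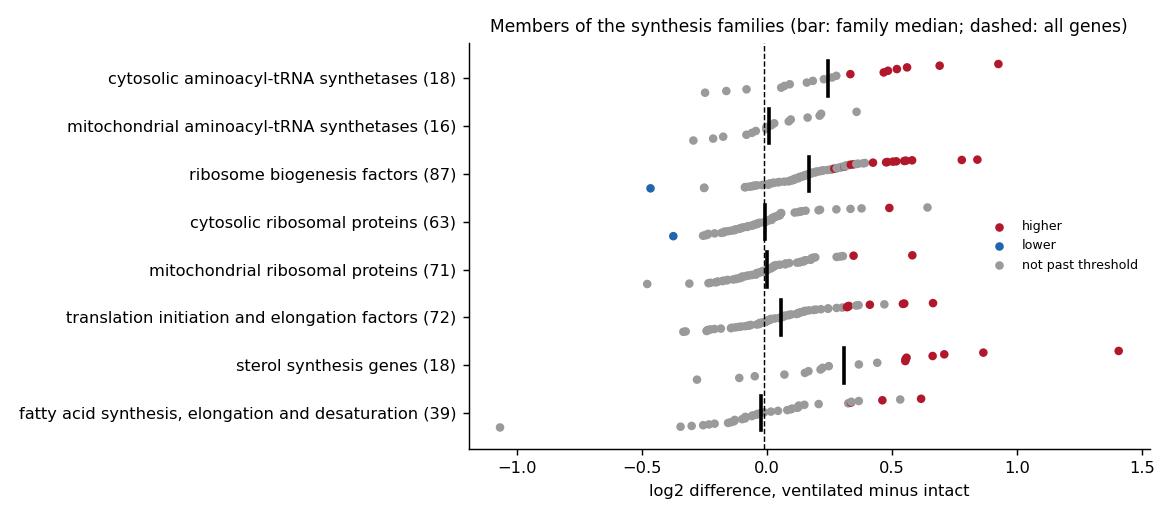
Log2 difference between ventilated and intact lungs for each member (point) of 8 synthesis families, with the family median as a bar and the median of all genes as a dashed line. The median is 0.24 for cytosolic and 0.01 for mitochondrial synthetases, 0.17 for ribosome biogenesis factors and -0.01 for cytosolic ribosomal proteins, and 0.31 for sterol synthesis genes.

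Sterol synthesis turns acetyl-CoA into cholesterol through mevalonate and squalene. Of 18 sterol genes 7 rose and none fell (38.9%), with a median of 0.31, the highest of the families over 10 members. The count was 3 without intact array 1, 4 without ventilated array 1 and 4 without ventilated array 2. Pmvk, phosphomevalonate kinase, measured 7.70, 7.93 and 7.88 in the intact lungs and 9.46, 8.83 and 9.44 in the ventilated lungs. Ventilated array 2 was the lowest of the ventilated values and still above every intact value, and the difference was 1.41 ± 0.16 (adjusted p = 0.000194). Lss, lanosterol synthase, measured 6.69, 7.03 and 7.0 in the intact lungs and 7.54, 7.75 and 7.56 in the ventilated lungs (0.71 ± 0.12), and Cyp51, which demethylates lanosterol, measured 6.86, 7.26 and 7.10 in the intact lungs and 8.19, 7.98 and 7.64 in the ventilated lungs (0.87 ± 0.18). Hmgcs1, at the entry to the pathway, differed by 0.66 ± 0.14 and lost its call without intact array 1 (adjusted p = 0.0513). Mvk, the enzyme just before Pmvk, differed by -0.28 ± 0.12 and did not pass.

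The letters CCAAT, on either strand, occur in the promoter sequence of all 14 sterol genes that have one, against 41.1% of all genes with a promoter. This holds for the 8 that did not pass as well as the 6 that rose, so it does not separate them. The sterol regulatory letters TCACNCCAC occur in 1 of the 14, Hmgcs1, against 1.44% of all genes. The Hmgcs1 promoter is shown for its 4 CCAAT matches, in capitals.
Hmgcs1, chr13:119690101-119690400, + strand: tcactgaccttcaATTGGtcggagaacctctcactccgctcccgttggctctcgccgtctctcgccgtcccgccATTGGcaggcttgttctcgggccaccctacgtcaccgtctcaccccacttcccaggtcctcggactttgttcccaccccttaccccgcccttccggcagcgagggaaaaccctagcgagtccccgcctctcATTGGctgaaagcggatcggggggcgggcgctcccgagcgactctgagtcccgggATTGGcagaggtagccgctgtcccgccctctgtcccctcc
Fatty acid synthesis, elongation and desaturation genes rose in 3 of 39 (7.69%), led by Lpin2 (0.62 ± 0.08), a phosphatidate phosphatase. Among 31 sphingolipid enzymes Sgms2, which makes sphingomyelin, measured 7.50, 7.14 and 7.38 in the intact lungs and 8.77, 8.36 and 8.80 in the ventilated lungs and differed by 1.30 ± 0.17. The sphingosine kinase Sphk1 rose (0.68 ± 0.12), and the ceramide synthase Cers4 fell (-0.48 ± 0.09).

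Basic leucine zipper factors, which include ATF4 and its dimer partners, rose in 16 of 45 and fell in 1 (37.8%, median 0.22). The higher count was 9 without both intact array 2 and ventilated array 1. The early factor Atf3 differed by 2.48 ± 0.25. Atf4 measured 8.59, 8.73 and 8.79 in the intact lungs and 9.88, 9.47 and 9.66 in the ventilated lungs and differed by 0.96 ± 0.11, its partner Cebpg by 0.53 ± 0.09 and the small MAF factors Maff by 1.43 ± 0.16 and Mafg by 0.73 ± 0.12. Jun and Fos themselves, named after their values were seen, differed by 0.29 ± 0.17 and -0.50 ± 0.37. Among 21 clock genes 5 rose and none fell, a count that was 3 without ventilated array 3. Lower clock genes numbered 1 without intact array 2, 2 without ventilated array 1 and 4 without both of these arrays. Nfil3 (1.15 ± 0.15) and Bhlhe40 (0.96 ± 0.17) kept their calls through every omission. The labels give no time of day for sampling.

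BTB zinc finger factors rose in 5 of 37, and Zbtb16, a target of glucocorticoids, measured 7.84, 8.14 and 8.51 in the intact lungs and 9.61, 9.97 and 10.12 in the ventilated lungs (1.74 ± 0.21). That count was 3 without intact array 1, 2 without intact array 2, 3 without ventilated array 1, 3 without ventilated array 2 and 2 without ventilated array 3. Of 363 numbered zinc finger proteins 12 rose and 24 fell (9.92%, against 10.5% of genes above the olfactory level). The counts were 5 without ventilated array 3 for higher genes and 14 without intact array 1, 15 without intact array 2, 11 without ventilated array 1 and 11 without ventilated array 3 for lower genes. Zfp750, a factor of squamous differentiation, fell, with a difference of -1.12 ± 0.13.

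Kinases and phosphatases moved singly. Plk3, a polo-like kinase of stress responses, measured 6.38, 6.50 and 6.61 in the intact lungs and 8.71, 7.97 and 8.43 in the ventilated lungs and differed by 1.87 ± 0.16. Map3k6 measured 6.79, 6.43 and 6.54 in the intact lungs and 7.92, 7.75 and 8.14 in the ventilated lungs (1.35 ± 0.13), and Mapkapk2, a target kinase of p38, differed by 0.60 ± 0.09. Map2k6, an activator of p38, moved the other way, with 6.18, 6.11 and 6.47 in the intact lungs and 5.20, 5.42 and 5.24 in the ventilated lungs (-0.97 ± 0.12). Of 24 dual-specificity phosphatases only Dusp16 (0.98 ± 0.12) and Dusp8 (1.07 ± 0.15) passed.

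Of 47 proteasome genes 5 rose and 2 fell. Of the 20 genes of the 19S regulator, with a median difference of 0.13, 3 rose, among them Psmd11 (0.54 ± 0.11) and Psmd12 (0.42 ± 0.08). Of the 3 immunoproteasome subunits 2 fell: Psmb9 measured 7.41, 7.43 and 7.47 in the intact lungs and 6.81, 6.84 and 7.13 in the ventilated lungs (-0.51 ± 0.10), and none of the 13 constitutive 20S subunits passed, with a median of 0.13. The proteasome counts were 3 without intact array 2, 3 without intact array 3, 3 without ventilated array 2 and 2 without ventilated array 3 for higher genes and 1 without intact array 2, 1 without intact array 3, 1 without ventilated array 1 and 1 without ventilated array 3 for lower genes. Ubiquitin-specific proteases rose in 7 of 50 and fell in none, led by Usp54 (0.56 ± 0.08), a count that was 4 without intact array 2, 4 without intact array 3, 3 without ventilated array 2 and 3 without ventilated array 3.

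Interferon-induced genes fell in 7 of 54 and rose in 1 (14.8%). Xaf1 measured 8.23, 8.22 and 8.38 in the intact lungs and 7.44, 7.60 and 7.55 in the ventilated lungs (-0.75 ± 0.11), Rsad2, viperin, measured 6.80, 6.66 and 6.95 in the intact lungs and 5.85, 6.12 and 6.27 in the ventilated lungs (-0.72 ± 0.14) and the immunity GTPase Irgm2 differed by -0.65 ± 0.13. The lower count was 4 without intact array 2, 12 without intact array 3 and 2 without both intact array 2 and ventilated array 1. None of the 10 interferon regulatory factors passed. The class I gene H2-T24 differed by -0.87 ± 0.14, and Tnfsf10, the death ligand TRAIL, measured 8.92, 8.92 and 8.72 in the intact lungs and 7.49, 7.88 and 7.94 in the ventilated lungs (-1.08 ± 0.14). NK cell markers moved with these genes: 3 of 4 fell, Ncr1, Nkg7 and Gzma. Ncr1 lost its call without ventilated array 1 (adjusted p = 0.0563) and Gzma without any of intact array 2, intact array 3, ventilated array 1 or ventilated array 2 (adjusted p = 0.0568 to 0.0965). The mean of the 4 was 6.66, 7.06 and 6.83 in the intact and 6.03, 6.15 and 6.29 in the ventilated arrays. Their part in the interferon and Tnfsf10 results was not tested.

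In the TNF superfamily of 47 genes 5 rose and 5 fell. The higher count was 3 without intact array 2, 3 without intact array 3 and 3 without ventilated array 3, and the lower count was 3 without intact array 1 and 2 without ventilated array 3. Tnfrsf12a, the TWEAK receptor, measured 7.19, 7.64 and 7.95 in the intact lungs and 9.82, 9.21 and 9.55 in the ventilated lungs (1.93 ± 0.18), and Tnfrsf19 fell, with a difference of -0.93 ± 0.11. Among interleukins 8.7% passed in either direction, against 7.2% of all genes. Of 46 interleukins 3 fell, Il16 (-0.50 ± 0.08) among them, and the lower count was 1 without ventilated array 1 and 1 without ventilated array 3. Il1f9 alone rose, with 5.51, 5.20 and 4.50 in the intact lungs and 7.06, 6.62 and 6.53 in the ventilated lungs (1.67 ± 0.30). The decoy receptor Il1r2 measured 5.22, 4.70 and 5.24 in the intact lungs and 6.48, 6.49 and 6.87 in the ventilated lungs (1.56 ± 0.27). The intact values of Il1f9 and Il1r2 were near the olfactory level, so the size of each rise is uncertain. The oncostatin receptor Osmr differed by 0.76 ± 0.11, and the transcription factor Stat3, which acts downstream of it, also rose (0.57 ± 0.08). Of 33 chemokines 3 rose and 3 fell: Ccl17 measured 6.66, 6.77 and 6.81 in the intact lungs and 8.51, 7.41 and 8.23 in the ventilated lungs (1.30 ± 0.23), and Cxcl12, made by endothelium and fibroblasts, fell, with a difference of -0.60 ± 0.12. The higher count was 5 without ventilated array 2 and 1 without ventilated array 3.

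Tlr2 (0.55 ± 0.09) and Tlr4 (0.54 ± 0.09) rose among 41 Toll-like and NOD-like receptors. Of these 41 genes 3 rose and 2 fell, and the lower count was 0 without intact array 2, 1 without intact array 3, 0 without ventilated array 1 and 0 without ventilated array 3. In the C-type lectin, Siglec and CD300 families 4 of 48 rose and 5 fell (18.8%), with Clec2d (-1.0 ± 0.09) and the Clec14a given above among the lower ones. The myeloid Clec12b rose by 1.49 ± 0.22, and Clec4d (0.96 ± 0.17) and Clec4e (0.63 ± 0.14), 2 receptors of neutrophils and macrophages named after their values were seen, rose with it. Neutrophil markers passed in 2 of 6: S100a8 differed by 0.91 ± 0.26, lost without any of intact array 2, intact array 3, ventilated array 1 or ventilated array 3 (adjusted p = 0.081 to 0.172), and Retnlg by 1.18 ± 0.30, lost without any of intact array 2, intact array 3, ventilated array 1 or ventilated array 3 (adjusted p = 0.0566 to 0.106). The mean of the 6 was 6.96, 6.57 and 6.25 in the intact and 7.74, 7.14 and 6.99 in the ventilated arrays. Its part in the lectin and receptor results was not tested.

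Of 480 microRNA precursors 11 rose and 5 fell (3.33%), below the share of all genes, and 325 had both means under the olfactory level. The 11 were 5 without intact array 2, 6 without intact array 3 and 6 without ventilated array 3, and the 5 that fell were 3 without intact array 3, 3 without ventilated array 2 and 1 without ventilated array 3. Array probes of this kind read the hairpin or its host transcript and not the mature form. Of the called precursors 6 had both means above the level, and the mature sequences of 5 of them are shown from RefSeq with the seed, bases 2 to 8, in capitals.
mmu-miR-27a-5p: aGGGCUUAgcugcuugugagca
mmu-miR-27a-3p: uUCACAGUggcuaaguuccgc
mmu-miR-23a-5p: gGGGUUCCuggggaugggauuu
mmu-miR-23a-3p: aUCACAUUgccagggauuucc
mmu-miR-674-5p: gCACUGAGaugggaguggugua
mmu-miR-674-3p: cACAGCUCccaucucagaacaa
mmu-miR-3097-5p: cACAGGUGggaagugugugucca
mmu-miR-3097-3p: cUCAGACCuuucuaccugucag
mmu-miR-1929-5p: uUCUAGGAcuuuauagagcagag
mmu-miR-1929-3p: cAGCUCAUggagaccuaggugg
The 10 sequences have 10 different seeds.

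Mir27a and Mir23a are neighbours, at chr8:84208672-84208758 and chr8:84208518-84208592 of GRCm38.p6, and share a primary transcript. Mir27a measured 7.72, 8.06 and 7.80 in the intact lungs and 8.56, 8.47 and 8.49 in the ventilated lungs and Mir23a measured 7.59, 7.49 and 7.57 in the intact lungs and 8.31, 8.11 and 8.19 in the ventilated lungs. Both rose by a similar amount, Mir27a by 0.65 ± 0.13 and Mir23a by 0.65 ± 0.18, and Mir23a lost its call without any 1 array (adjusted p = 0.0767 to 0.129). Mir3097, inside the gene Rgs12 at chr5:35021049-35021115, measured 7.81, 7.24 and 7.44 in the intact lungs and 6.27, 6.31 and 5.83 in the ventilated lungs and differed by -1.36 ± 0.21. Rgs12 itself differed by -0.56 ± 0.11. The Mir3097 probe may read the Rgs12 transcript, so a fall of the hairpin itself was not shown. Mir674 (0.68 ± 0.18) lost its call without any of intact array 2, ventilated array 2 or ventilated array 3 (adjusted p = 0.0565 to 0.149). Mir1929, inside the gene Atg5, differed by 0.39 ± 0.10, and its probe may read the Atg5 transcript. Mir143 differed by -0.72 ± 0.19 and had no matching hairpin in the sequences used, so its sequences are not shown. The dependence of the Mir1929 and Mir143 calls on single arrays is not given here.

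Transporters, channels and metabolic enzymes outside these groups moved singly. Slco1c1, a thyroid hormone and organic anion transporter, measured 5.22, 5.09 and 5.30 in the intact lungs and 6.49, 6.98 and 6.92 in the ventilated lungs and differed by 1.59 ± 0.13 (adjusted p = 3.58e-05). Its intact values were near the olfactory level. Slc26a4, pendrin, an anion exchanger of airway epithelium, measured 4.63, 4.84 and 5.20 in the intact lungs and 6.59, 5.72 and 6.96 in the ventilated lungs (1.53 ± 0.27), with intact values near the olfactory level. The monocarboxylate transporter Slc16a9 fell, with 8.99, 9.16 and 9.03 in the intact lungs and 7.73, 8.12 and 8.10 in the ventilated lungs (-1.08 ± 0.15), and a second probe of it differed by -0.23. Kcnk1, a background potassium channel, rose by 0.93 ± 0.14 and the zinc importer Slc39a14 by 0.79 ± 0.14.

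Of 14 carbonic anhydrases the cytosolic Car2 (-0.72 ± 0.12) and the capillary Car4 (-0.50 ± 0.11) fell, and Car13 (0.67 ± 0.14) and Car15 (0.58 ± 0.12) rose. The higher count was 0 and the lower count 2 without both intact array 2 and ventilated array 1. Flavin monooxygenases split likewise: Fmo1 measured 10.97, 11.05 and 11.01 in the intact lungs and 10.04, 10.24 and 10.16 in the ventilated lungs (-0.86 ± 0.11) and Fmo5 fell, with a difference of -0.56 ± 0.08, while Fmo4 rose by 0.80 ± 0.12. Lox, which crosslinks collagen and elastin, rose with 8.68, 8.15 and 8.49 in the intact lungs and 9.72, 9.45 and 9.42 in the ventilated lungs (1.09 ± 0.16), and the microfibril gene Mfap2 fell (-0.67 ± 0.11). The tubulins Tuba1c (0.86 ± 0.11) and Tubb6 (0.92 ± 0.19) rose, with a second Tuba1c probe at 0.06, and Mylk, the myosin light chain kinase, fell (-0.73 ± 0.08).

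**Figure D5:**
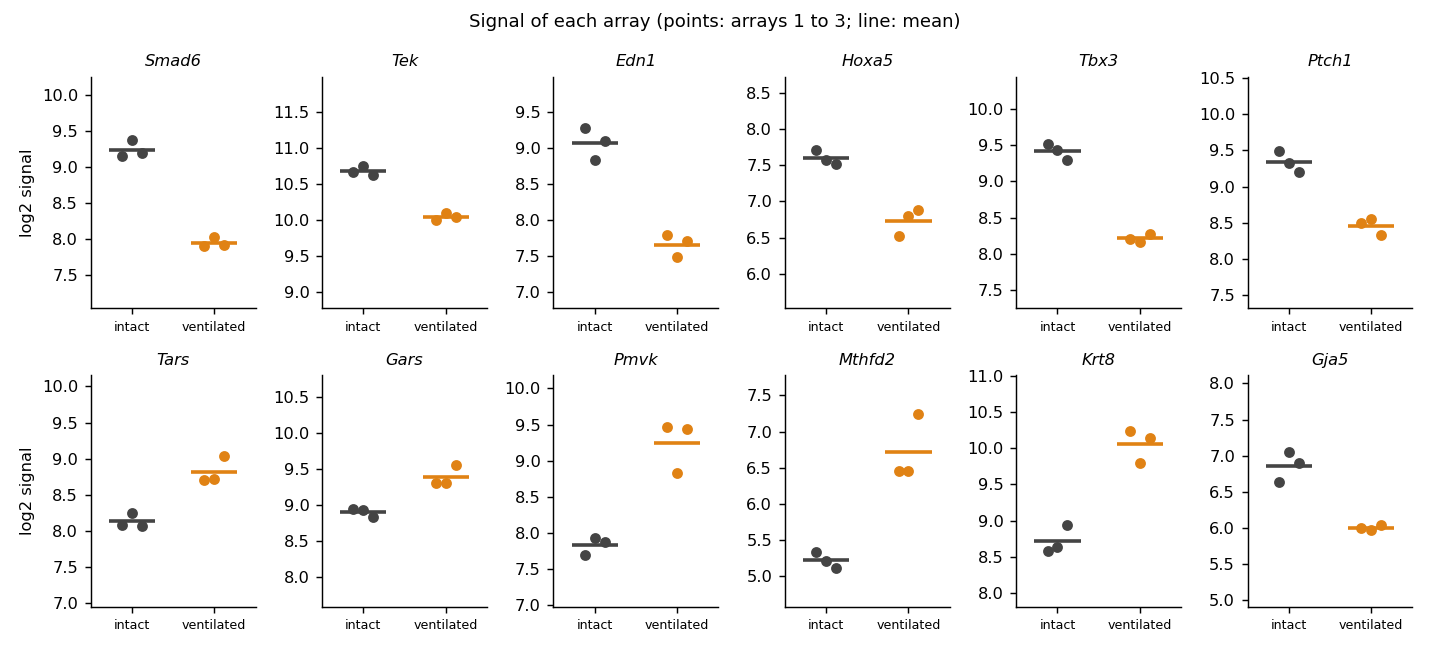
Log2 signal of each array for 12 genes of the families described, with points for arrays 1 to 3 of the intact and ventilated groups, a line for the group mean and a y axis of the same span in every panel. The groups do not overlap in any of the 12 genes, which were chosen from called genes. Pmvk is lowest among ventilated lungs in array 2, and Mthfd2 is highest in array 3.

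Several large families had few or no called members. Of 44 collagens none passed, with differences from -0.44 to 0.44 and a median of -0.02. None of 14 laminin and basement membrane genes, 26 TRP and Piezo channels, 30 amine receptors, 23 complement genes or 32 glucuronosyl and sulfotransferases passed either. The stretch-activated channel Piezo1, named after its value was seen, measured 9.29, 9.40 and 9.44 in the intact lungs and 9.46, 9.34 and 9.37 in the ventilated lungs and differed by 0.02 ± 0.08. Of 97 respiratory chain and ATP synthase subunits 1 rose and 1 fell (2.06%), and of 72 axonemal and ciliary genes 1 rose and 1 fell (2.78%). Of 1082 olfactory receptor genes matched by symbol 5 rose and 3 fell (0.739%), and of 284 vomeronasal receptors none passed. The olfactory counts were 3 without intact array 1, 3 without intact array 2, 3 without intact array 3, 3 without ventilated array 2 and 3 without ventilated array 3 for higher genes and 1 without ventilated array 1, 0 without ventilated array 2 and 1 without ventilated array 3 for lower genes. A difference that missed the threshold with 3 arrays per group was not shown to be absent.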

How the data were processed

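The authors deposited normalized log2 signals for 41345 probes of one-colour Affymetrix arrays. Robust multi-array averaging (RMA) and limma are named, without versions, in the submitters' processing notes, and the genome build and array annotation version of the probes are not given there. Probe names came from GEO's platform annotation: 23521 probes have 1 symbol, 1814 several and 16010 none. Each of 22180 genes was represented by its probe with 1 symbol and the highest mean over 12 arrays, and 1082 genes have several probes. limma 3.58.1 in R 4.3.3 fitted 4 group means to all 12 arrays. The contrast was ventilated minus intact wild type, with Benjamini-Hochberg adjustment over all genes and a threshold of 0.05, and every adjusted p in the text comes from this limma fit or its repeat without an array. p-values measure the spread between these arrays only. Depth does not apply to arrays, and 3 per group limits the precision.

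On simulated data with 22180 genes for this comparison, 72% of 100 genes changed 1.5-fold and 92% of 100 changed 2-fold were recovered, none in the wrong direction. Of the unchanged genes 5 were called. The noise was drawn independently for each gene and array. Effects shared by the genes of an array, such as liver or cardiac RNA, were therefore not simulated. Alternatives were the wild type arrays alone, a replicate block, a trended robust prior, arrays centred on their medians, quantile normalization, filters on low signals, the mean over probes, and each array left out. Leaving out intact array 2 and ventilated array 1 together was added after seeing the data.

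Members, families and lists were chosen with earlier results of these data known. Named genes are the 15 largest increases and 15 largest decreases whose arrays do not overlap, leaving aside predicted genes, small noncoding RNAs, chemosensory receptors and immune receptor segments. Named too are, per family, the 4 called members with the smallest adjusted p, or 8 where 10 or more were called. Calcrl, Clec4d, Clec4e, Inhba, Meis2, Mup3, Tgfb3, Mir23a, Mir143, Mir674, Mir1929, the HOX genes of cluster B, the cell markers and every named gene that did not pass were chosen after their values were seen. Promoter and microRNA sequences are RefSeq's (GRCm38.p6).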

Additional observations from a re-analysis of the deposited data

Results flagged for a closer look

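Probes without a gene name lie outside the comparison of genes, and part of them changed with ventilation. In a limma fit over all 41345 probes, 209 of the 16010 unnamed probes passed an adjusted p of 0.05. Of these 117 were higher and 92 lower, and 61 differed at least 2-fold. Of the 7028 unnamed probes with a mean above the olfactory level 162 passed. The share was 1.31% of unnamed probes, below that of the whole fit, in which 1215 of all 41345 probes passed. What these probes measure was not analysed here.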

How the results depend on the processing

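The total of 1597 genes (815 higher, 782 lower) fell to 923 (495 higher, 428 lower) when the 6 wild type arrays were fitted alone, and 895 of the 923 were among the 1597. Without intact array 2 and ventilated array 1, an alternative chosen after seeing the data, it was 886 (473 higher, 413 lower). With 1 array left out the total ranged from 799 to 1307, the higher genes from 391 to 659 and the lower genes from 408 to 664. Subtracting each array's median gave 681 higher and 883 lower genes, so 43.5% of calls were higher against 51.0%, with the median of all genes at -0.04. Replicate numbers did not pair the arrays: the deviations of same-numbered arrays correlated at -0.13, 0.13 and -0.03, and a replicate block gave 1463 genes. Of the 480 genes that the naming rule selects, more than the text names, none turned direction under these alternatives, 117 lost their call with the wild type arrays alone and 76 to 147 with 1 array left out. Signals near the olfactory level may understate differences, which was not tested.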
